A study of Drosophila melanogaster with 12 samples.

Results

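The genes described here are 9 of the genes by which a Drosophila male germ cell becomes a spermatocyte and then a sperm: aly, fzo, r-cup, robls54B, Cyt-c-d, dj, soti, Mst84Dd and ProtB. They were chosen by symbol, as rows of the authors' 4 deposited tables, and all 9 were listed in at least 1 table, of 1457 genes listed in all. Together they fill 14 rows, because aly and fzo were listed in 3 tables, soti in 2 and the remaining 6 genes in 1 each. Of these rows 5 were in the table of dissected spermatogonia and 3 each were in those of the tut, bam and bgcn mutants.

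RNA was sequenced from 12 libraries that form 5 groups. Germ cells in meiosis (SC) and germ cells in mitosis (SG) were both cut by laser from the testes of wild-type flies, 3 libraries for each. The mutant groups, 2 libraries for each, were undissected testes of tut3 (SG-tut), bamBG/bamΔ86 (SG-bam) and bgcn20093/bgcnQS2 (SG-bgcn) flies, in which germ cells arrested at mitosis predominate. Mutant testes thus still hold the other cells of the organ, and their libraries were made with another kit than SG and SC. Genotype, dissection and kit cannot be told apart between a mutant and SC. Fewer cells of a type and less RNA per cell cannot be told apart in any group. The sources used here give no age of the flies and do not say that the libraries of a group came from separate animals, so the authors' P may measure technical spread only.

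In the fly testis, spermatogonia divide a fixed number of times and then enter a long growth phase as primary spermatocytes. bam, bgcn and tut, whose proteins act together, are needed to leave the mitotic programme. In spermatocytes a testis-specific complex called tMAC, to which Aly belongs, together with testis forms of general transcription factors, switches on the genes for meiosis and for building the sperm. Many of these mRNAs are made in spermatocytes, stored and translated only in spermatids, while a small class, the cup and comet genes, is known for transcription after meiosis. An mRNA can also end at several 3′ positions, and the stretch beyond a nearer end is called an extension here.

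Each deposited row gives the average level of a gene and of its 3′ extension in SC and in 1 mitotic group, and the extension share, which is the extension level over the gene level. As these are the authors' group averages, with no values per library, no error can be set beside them and no gene was tested anew. No source names the unit of the levels. Extension levels are scaled by length, since in 1005 of 1236 pairs of nested extensions of a gene the longer one had the lower SC level, and level times length was never smaller for the longer one. Whether gene levels are scaled in the same way is not given, so gene levels are compared between groups but not between genes. A gene counts as called where the authors' FDR is at most 0.05. The FDR may refer to the extension level or to the share, which no source used here settles.

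Markers of mitotic germ cells and of other cells also differed between the groups. The gene level of stg, the phosphatase that triggers mitosis, was 0.57 in SC and lay between 19.26 and 26.1 in the 4 mitotic groups, per the authors' deposited tables. Of 9 mitotic germ cell markers the others listed did not all follow stg. mei-P26 was at 25.64 in SC against 11.38 in SG, 40.42 in SG-bam and 30.36 in SG-bgcn, and tut at 87.25 in SC against 44.16 in SG, per the authors' deposited tables. No table lists bam or bgcn, and tut appears for SG alone, so the mutations could not be checked at the mutated genes. The SC libraries, labelled meiotic, also held transcripts of genes known for post-meiotic transcription, with 1672.73 for soti and 131.32 for r-cup, per the authors' deposited tables. Of 12 hub and cyst cell markers the SG table lists 3, that of SG-bam 1, that of SG-bgcn 2 and that of SG-tut 0, and their gene levels differed in opposite directions. dally was at 138.77 in SC against 5.13 in SG and 0.15 in SG-bgcn, per the authors' deposited tables. zfh1 was at 2.7 in SC against 11.26 in SG, 9.99 in SG-bam and 8.98 in SG-bgcn, and CadN at 2.34 in SC against 3.21 in SG, per the authors' deposited tables. The summed level of the 3 in SG, 143.81 in SC against 19.6, is thus set by dally. Of 9 muscle markers Tm1 was listed in all 4 tables, at 18.18 in SC against 97.18 to 212.92 in the mitotic groups, per the authors' deposited tables. Tm2, the only other one listed, appeared for SG-bgcn alone, at 4.52 in SC against 66.98, per the authors' deposited table. Of 7 accessory gland markers only Acp95EF was listed, and only for the mutants, at 349.28 in SC against 3979.91 in SG-tut, 673.08 in SG-bam and 2120.41 in SG-bgcn, per the authors' deposited tables. Of 5 fat body and haemocyte markers only Cg25C was listed, for SG, at 0.56 in SC against 7.94 in SG, per the authors' deposited table. The part of these cells in the results below was not tested.

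The gene level was lower in the mitotic group than in SC in all 14 rows of the 9 genes. The extensions fell into opposite kinds. For aly, fzo, r-cup, robls54B and Cyt-c-d the extension level was higher in the mitotic group while the gene was lower (9 rows). For dj, soti, Mst84Dd and ProtB both extension and gene were lower than in SC (5 rows), and in 4 of those rows the extension was listed at 0. All 14 rows were called. The tables are a selection, however: each of their rows has a P below 0.05 and an extension level that differs more than 2 times. Called were 96.4% of all listed rows in SG, 97.1% in SG-tut, 95.6% in SG-bam and 94.5% in SG-bgcn, so nothing about these genes is read from the calls themselves. By direction, all 5 members in SG were called with the higher share, as were 88.5% of all SG rows. In SG-tut all 3 members were called with the lower share as deposited, though with extensions at 0, against 25.2% of all rows. SG-bam and SG-bgcn each had 2 members called with the higher share, against 73.5% and 71% of all rows. The 1 remaining member of each, Mst84Dd in SG-bam and soti in SG-bgcn, had the lower share as deposited, against 22.1% and 23.5%. For soti the extension was at 0 there too, and for extensions at 0 the authors' added constant sets the direction of the share. A gene missing from a table is unlisted there, which says nothing about its level.

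**Figure D1:**
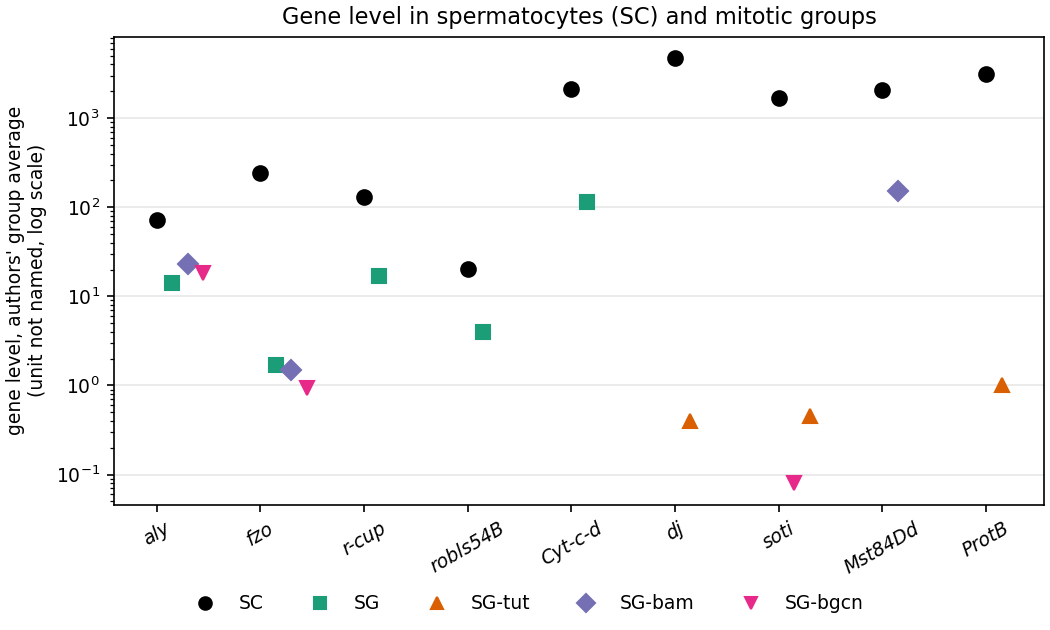
Gene level of the 9 genes on a log axis, as the authors' group average in SC (black) and in each mitotic group whose table lists the gene. There are no error bars because no values per library were used. The SC point is the highest for each of the 9 genes.

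The gene levels of all listed rows give the background to the lower levels of these genes. In SG, 40.5% of all rows had a lower gene level than SC, against 5 of 5 members. The background was 45.5% in SG-tut, 44% in SG-bam and 43.2% in SG-bgcn, against 3 of 3 members in each. Among rows with the higher share the gene level was lower in 38.4% for SG, 33.7% for SG-bam and 33.2% for SG-bgcn, where 5 of 5, 2 of 2 and 2 of 2 members had it. Among rows with the lower share as deposited, extensions at 0 included, it was lower in 76.2% (SG-tut), 79.3% (SG-bam) and 74.2% (SG-bgcn), where 3 of 3, 1 of 1 and 1 of 1 members had it. Over all rows the median log2 fold of the gene level was 0.46 in SG, 0.32 in SG-tut, 0.47 in SG-bam and 0.47 in SG-bgcn. The 4 comparisons share the SC averages and are not independent of each other.

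**Figure D2:**
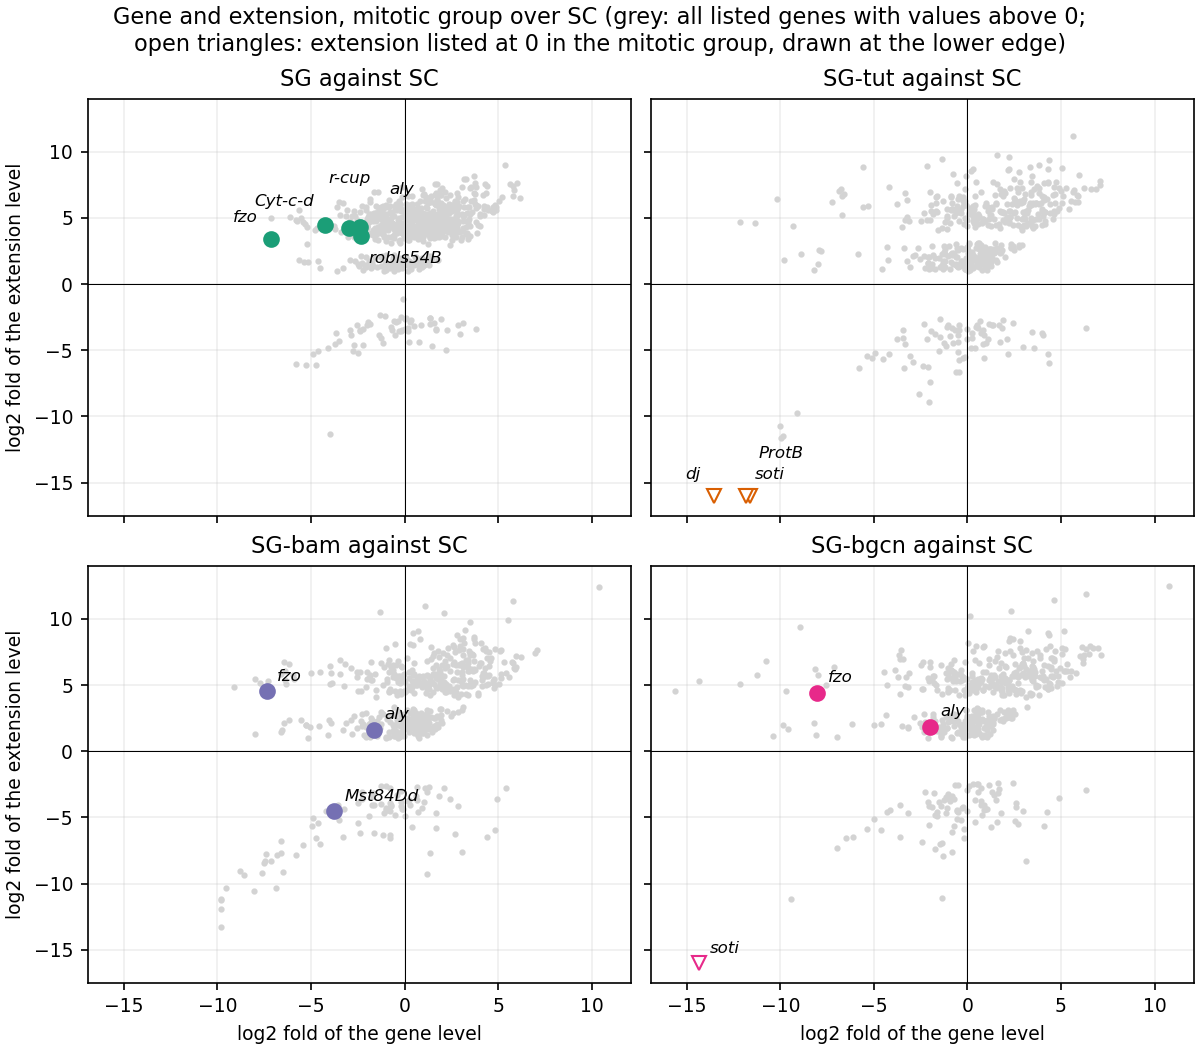
Log2 fold of the extension level (vertical) against that of the gene level (horizontal), mitotic group over SC, in the authors' 4 tables. Grey points are all listed genes with values above 0 and coloured points the 9 genes, which all lie left of 0. Open triangles at the lower edge stand for extensions listed at 0 and carry no vertical value.

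The transcription regulator aly was the only member whose extensions overlap its own annotated 3′ UTR. Its gene level was 72.72 in SC, 14.12 in SG, 23.35 in SG-bam and 18.21 in SG-bgcn per the authors' deposited tables, and it was not listed for SG-tut. SC was thus 5.15 times SG, 3.11 times SG-bam and 3.99 times SG-bgcn, and how far the 3 mitotic levels differ beyond their spread cannot be said. Over these 4 groups the gene with the most similar pattern of gene levels was TSG101, at a distance of 0.166 on the log2 scale after centring, among 153 genes listed in the same 3 tables. NijC followed at 0.303 and CG45050 at 0.420.

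The extension of aly went the other way. By the authors' deposited table its level was 0.110 in SC against 2.19 in SG, and the share was 0.152% and 15.5% (FDR 1.65e-05). For SG-bam the authors' deposited table has extension levels of 0.617 and 1.89 and shares of 0.849% and 8.11% (FDR 6.00e-06). For SG-bgcn the levels were 0.428 and 1.53 and the shares 0.588% and 8.43% per the authors' deposited table (FDR 2.62e-05). The mitotic extension levels were thus 19.9, 3.07 and 3.59 times those of SC. The tables measure stretches of different length, so neither the SC nor the mitotic levels are compared between them.

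All 3 aly extensions begin at the same base inside the annotated 3′ UTR and end at different places. In dm6 coordinates aly (FBgn0004372) lies on chromosome 3L from 3024129 to 3026521 on the minus strand. Its SG extension runs from 3024212 to 3024521, 310 bases that lie wholly in the annotated 3′ UTR and stop 83 bases short of the annotated end. The SG-bgcn extension of 560 bases reaches down to 3023962 and the SG-bam extension of 650 bases to 3023872, so that they pass the annotated end by 167 and 257 bases. In both, 393 bases lie in the 3′ UTR. No exon of another gene is touched.

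fzo encodes the mitofusin that fuses spermatid mitochondria into the nebenkern, and its row shows the largest contrast among these genes that had signal in both groups. The gene level was 244.79 in SC, 1.71 in SG, 1.49 in SG-bam and 0.93 in SG-bgcn per the authors' deposited tables. SC was 143 times SG, 164 times SG-bam and 263 times SG-bgcn. In SG the log2 fold of -7.16 was the lowest of the 751 rows, shared with the cnc row described below. A gene level at least 100 times lower was found in 2 of the 751 SG rows (0.266%), those of fzo and cnc. In SG-bam it was found in 9.56% of all rows, and fzo was the member with it in both groups. The extension level, in contrast, was 0.239 in SC against 2.56 in SG per the authors' deposited table (FDR 0.0188). It was 0.322 and 7.42 for SG-bam (FDR 0.00268), and 0.316 and 6.76 for SG-bgcn (FDR 0.00844), per the authors' deposited tables. SC shares lay between 0.0976% and 0.132%, and all 3 mitotic shares are deposited as 100%, which is a ceiling. The deposited extension level was 149%, 498% and 727% of the gene level in SG, SG-bam and SG-bgcn. Whether both levels are scaled alike is not given. fzo was the only member with a deposited extension level above its gene level. Such rows made up 15.3% of all SG rows, 5.26% of SG-tut, 5.49% of SG-bam and 7.61% of SG-bgcn rows.

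The fzo values cannot be assigned to fzo alone. fzo (FBgn0011596) lies on the minus strand of chromosome 3R (23201644 to 23204034), wholly inside cnc, a stress-response transcription factor gene that spans 23185580 to 23226711 on the same strand. By the authors' deposited table for SG, cnc has the same gene level as fzo in both groups, 244.79 and 1.71. Only 4 of the 751 SG rows share both gene levels with another row. The extension of fzo starts 330 bases past its annotated end in all 3 tables. In SG it runs for 1300 bases and 548 of them lie in exons of cnc, while in SG-bam and SG-bgcn it runs for 500 and 510 bases within introns of cnc. The extension of cnc itself, at the far end of that gene, had levels of 0.759 in SC against 24.3 in SG per the authors' deposited table. Its extension was thus also higher in SG, and how much of the fzo result belongs to cnc was not tested. The 3 genes nearest to fzo in gene level pattern, CG12511, CG31988 and beat-IIIc, lay at distances of 2.71, 3.34 and 3.44, so none of the 153 genes compared was close.

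Cyt-c-d encodes the testis form of cytochrome c, used for caspase activation when spermatids are separated. Its gene level was 2122.16 in SC against 113.48 in SG per the authors' deposited table, so SC was 18.7 times SG. The extension level was 0.385 in SC against 8.72 in SG, and the share 0.0181% and 7.69%, per the authors' deposited table (FDR 8.17e-18). This was the lowest SC share of the 9 genes. The extension does not adjoin the gene. Cyt-c-d (FBgn0086907) starts at 16715891 and ends at 16719635 on chromosome 2L, plus strand, and the extension runs for 1490 bases from 16720156 to 16721645, 520 bases further on. That stretch lies wholly inside the neighbouring Cyt-c-p (16719932 to 16722644, same strand), the cytochrome c gene of somatic cells, without touching an exon of it. Cyt-c-p is not listed in the tables, and its part in the extension level was not tested.

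robls54B, a relative of the roadblock light chain of dynein, was at a gene level of 20.36 in SC against 3.99 in SG per the authors' deposited table. SC was 5.10 times SG. Its extension level was 0.156 in SC against 1.95 in SG, and the share 0.765% and 48.9%, per the authors' deposited table (FDR 3.31e-05). The extension lies furthest from its gene. It covers 1996 bases of chromosome 2R from 17451297 to 17453292, 2450 bases past the end of robls54B (FBgn0263233, 17455743 to 17456441, minus strand), and CG10764 on the plus strand lies between them (17453399 to 17455729). Of these bases 457 are in exons of mthl3, a receptor gene on the same strand, and 478 in a transposable element of the INE-1 family. mthl3 itself had, by the authors' deposited table, a gene level of 1.74 in SC against 5.01 in SG, a difference in the direction of the robls54B extension and opposite to that of robls54B itself. Its part in the result was not tested.

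r-cup belongs to the cup class of genes transcribed in spermatids. Its gene level was 131.32 in SC against 16.93 in SG per the authors' deposited table, with SC 7.76 times SG. The extension level was 0.0580 in SC against 1.08 in SG, and the share 0.0442% and 6.36%, per the authors' deposited table (FDR 0.00490). r-cup is the only X-linked gene of the 9 (FBgn0031142, chromosome X, 21023390 to 21025888, minus strand). The extension of 340 bases, from 21023040 to 21023379, begins 10 bases past the annotated end and touches no other gene. aly and r-cup are therefore the members with a higher extension in SG that overlap no annotated feature of another gene.

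**Figure D3:**
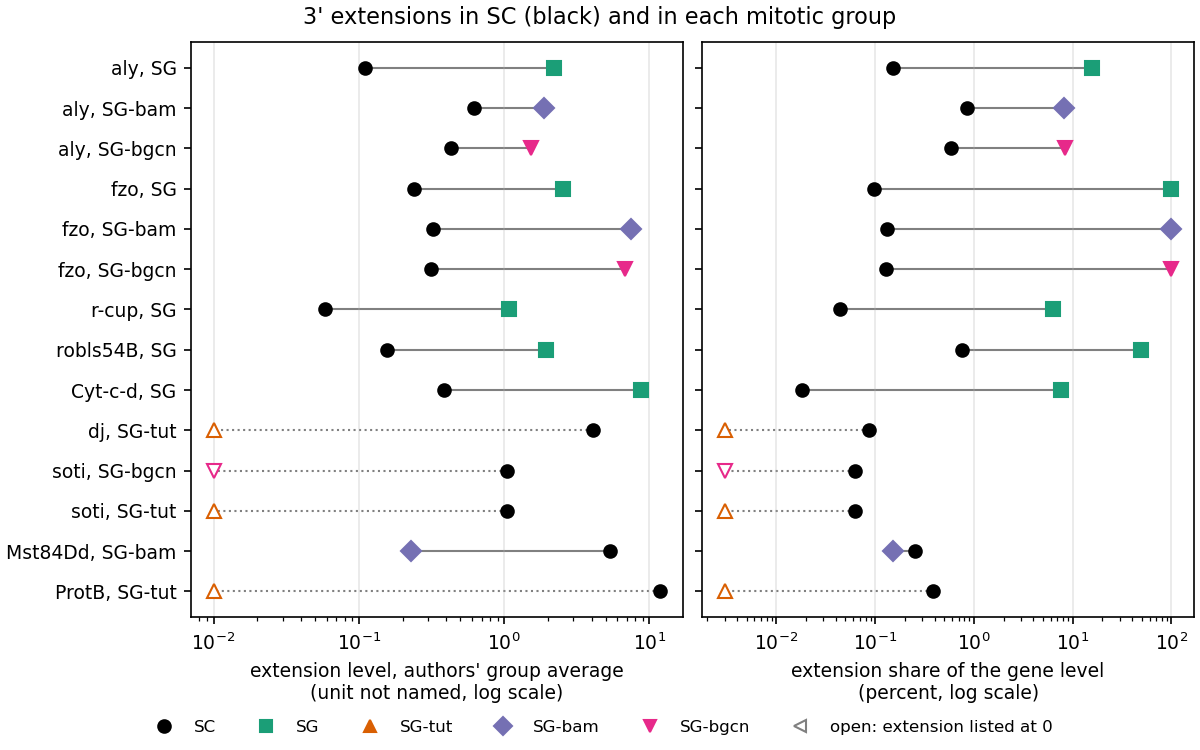
Extension level (left) and extension share (right) on log axes, in SC (black) and in the mitotic group of each of the 14 rows, as the authors' group averages without error bars. The 9 upper rows have mitotic shares between 6.36% and 100% against 0.0181% to 0.849% in SC. Open symbols at the left edge mark extensions listed at 0, whose position carries no value.

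The genes of the second kind, dj, soti, Mst84Dd and ProtB, were listed for mutants only. Of the first kind, r-cup, robls54B and Cyt-c-d were listed for SG only, and aly and fzo for SG and mutants. Except for aly and fzo, the kind of extension and the comparison thus cannot be told apart. Genes used in spermatids occur in both kinds. For dj, ProtB and soti the gene level in the mutant was at most 1. dj encodes a protein of sperm mitochondria and of the sperm tail. Its gene level was 4725.77 in SC against 0.4 in SG-tut per the authors' deposited table, a log2 fold of -13.53, and 3 of the 627 rows had a lower one. ProtB, one of the protamine-like proteins that package sperm DNA, had 3108.25 in SC against 1 in SG-tut (log2 fold -11.60) per the authors' deposited table. For soti, an inhibitor of the Cul3 ubiquitin ligase during sperm individualization, the gene level was 1672.73 in SC, 0.46 in SG-tut and 0.08 in SG-bgcn per the authors' deposited tables. A gene level at least 100 times below SC was found in 13.6% of all SG-tut rows and 11% of all SG-bgcn rows. In SG-tut it held for 3 of 3 members and in SG-bgcn for 2 of 3, soti and fzo.

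The extensions of dj, ProtB and soti had a level above 0 in SC only, among the groups listed for them. The extension level in SC was 4.10 for dj, 11.9 for ProtB and 1.04 for soti, with shares of 0.0867%, 0.382% and 0.0623%, per the authors' deposited tables. In the mutants each of these extensions was listed at 0. Of all rows with the lower share as deposited 48.8% in SG-tut, 36.6% in SG-bam and 40.4% in SG-bgcn had an extension at 0, against 3 of 3, 0 of 1 and 1 of 1 members. FDRs were 0.000194 for dj, 1.99e-07 for ProtB, and 0.000927 (SG-tut) and 0.000800 (SG-bgcn) for soti per the authors' deposited tables. No fold or direction of the share is read from these rows. With the SC share unchanged, the mutant extension level would have been 0.000347 for dj, 0.00382 for ProtB, 0.000287 for soti in SG-tut and 4.99e-05 for soti in SG-bgcn. All of these are below the smallest extension level above 0 in the 2 tables, 0.00770 for SG-tut and 0.00853 for SG-bgcn. An unchanged 3′ end was thus not detectable for these genes.

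Mst84Dd, of a gene cluster for cysteine- and glycine-rich proteins of the sperm tail, is the member of this kind with signal in both groups. Its gene level was 2088.11 in SC against 152.35 in SG-bam per the authors' deposited table, with SC 13.7 times SG-bam. The extension level was 5.33 in SC against 0.229 in SG-bam (FDR 3.45e-12 per the authors' deposited table), so SC was 23.3 times SG-bam. Gene and extension were lower together, and the share was 0.255% in SC against 0.150% in SG-bam, a factor of 1.70. dj, ProtB and soti were not listed for SG-bam, nor Mst84Dd for SG-tut or SG-bgcn, so these genes share no mutant in which to be set side by side.

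The extensions of the second kind begin at most 20 bases past their genes, and those of dj and Mst84Dd stop where the next gene begins. dj (FBgn0019828) lies at 7059315 to 7060524, and its extension runs from 7060525 to 7060766 on chromosome 3R, plus strand, and fills all 242 bases between dj and its relative djl, which starts at 7060767. A transposable element, G5A, covers 67 of these bases. The extension of Mst84Dd (FBgn0004175, 7363307 to 7363773) spans 1163 bases from 7362124 to 7363286 on chromosome 3R, minus strand, beginning 20 bases past the gene and ending directly at CG17944 (7361368 to 7362123). The extension of ProtB (FBgn0013301, 14882101 to 14883721) covers 488 bases of chromosome 2L from 14881613 to 14882100 on the minus strand, of which 40 are in an exon of ProtA. The extension of soti (FBgn0038225, 14380663 to 14381699) is the same 540 bases of chromosome 3R, 14380123 to 14380662 on the minus strand, in both tables and touches no other gene. Ending directly at the next gene was found in 14.1% of all SG rows, 16.3% of SG-tut, 15% of SG-bam and 14.1% of SG-bgcn rows, and in dj and Mst84Dd among the members. An exon of another gene was touched in 13% of all SG rows (fzo and robls54B among 5 members), 16.4% of SG-tut (ProtB among 3), 16.3% of SG-bam (0 of 3) and 16.2% of SG-bgcn rows (0 of 3). ProtA and ProtB are near-identical copies, and the way reads were divided between such copies, or by strand, is not given in the sources used here.

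**Figure D4:**
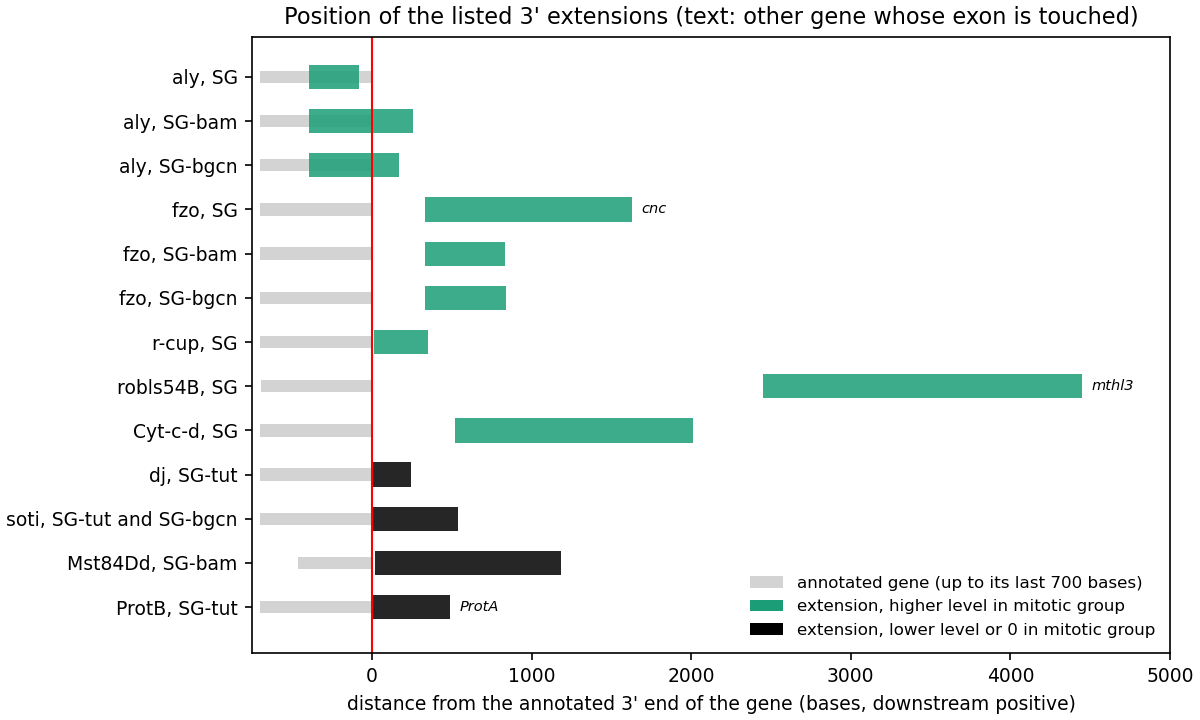
Position of each listed extension relative to the annotated 3′ end of its gene (red line at 0), in bases, downstream to the right. Green extensions had the higher level in the mitotic group, and black ones the lower level or a listed 0. The robls54B extension starts 2451 bases away, the Cyt-c-d extension 521 and the fzo extensions 331, while those of dj, soti and ProtB begin at the first base past the gene.

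Other genes of spermatocyte and spermatid differentiation were listed too. Of 97 further genes on 9 lists of this pathway 7 appeared in a table, in 17 rows. All 17 rows were called, as were 94.5% to 97.1% of all rows of the tables. Called with the higher share in the mitotic group were 12 of them, against 71% (SG-bgcn) to 88.5% (SG) of all rows. In the other 5, of ProtA, robl37BC and sowi, the mitotic extension was listed at 0, and no direction of the share is read. In 13 of the 17 the gene level was lower than in SC, against 40.5% (SG) to 45.5% (SG-tut) of all rows. The 17 rows repeat 7 genes and share the SC averages, so they are not independent. The lists for testis-specific general transcription factors and for the meiotic divisions had no listed gene. The tMAC list had none apart from aly, and the sperm tail list none apart from Mst84Dd. The list for sperm mitochondria and the nebenkern had none apart from fzo, Cyt-c-d and dj.

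Among these further genes orb and gish combined a lower gene level with a higher share in each group listed for them, like aly. robl did so in SG-tut and SG-bgcn but not in SG, and jar did so in no group. orb, an RNA-binding protein gene placed on the post-meiotic list, had gene levels of 378.72 in SC, 45.21 in SG, 33.59 in SG-tut and 31.34 in SG-bgcn per the authors' deposited tables. Its extension share was 0.0547% in SC against 22.3% in SG per the authors' deposited table (FDR 4.48e-54). gish, a casein kinase needed for individualization, stood at a gene level of 636.52 in SC and of 87.05 to 102.42 in the 3 mutants, with shares of about 0.251% in SC against 10.5% in SG-tut, per the authors' deposited tables. jar, the unconventional myosin that moves with the individualization complex, was higher than SC in both respects, with gene levels of 26.86 in SC and 37.71 to 50.33 in the mutants per the authors' deposited tables.

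Genes whose mutant extensions were listed at 0 included close relatives of the chosen ones. ProtA had gene levels of 2114.14 in SC against 0.29 in SG-tut per the authors' deposited table, beside 3108.25 and 1 for ProtB. sowi of the post-meiotic list had 1129.32 in SC, 4.37 in SG-bam and 0.03 in SG-bgcn per the authors' deposited tables. Of the roadblock family, robl37BC had 204.27 in SC, 2.34 in SG-bam and 0.02 in SG-bgcn per the authors' deposited tables, again with extensions at 0. robl, the family member of general dynein function, was by contrast at 894.27 in SC against 1121.63 in SG, with shares of 0.0266% and 0.677% per the authors' deposited table (FDR 1.60e-41). In SG-tut and SG-bgcn the gene level of robl was below SC, at 358.4 and 442.67 per the authors' deposited tables. The share of robl was higher there too. It was 0.00857% in SC against 0.0468% in SG-tut (FDR 0.0207), per the authors' deposited table. For SG-bgcn it was 0.0316% in SC against 1.49% (FDR 0.000124), per the authors' deposited table.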

How the data were processed

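The 12 RNA-seq libraries of 5 groups were studied through 4 deposited tables, each setting 1 mitotic group against SC. The submitters' processing notes name dm6 as the build. Per those notes the authors used DESeq2, CASAVA, FastQC 0.11.3 and Trimmomatic 0.33, besides Cuffdiff 2.2.1, Cufflinks 2.2.1 and TopHat2 2.1.0, with no role given for any. How extensions were defined and tested is not stated there. Per the file headers, the authors averaged levels per group, and as the unit is unnamed they were treated as a score. No library's depth is known. The authors deposited the share as a fraction, printed here as a percentage. From the values, it equals extension over gene level, each plus 1e-05, limited to 1. The deposited log2 folds include an added 1e-05. P-values and FDR are also the authors', as deposited.

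Tables were read with Python 3.11.15 and pandas 2.3.3. Extensions were placed on Ensembl release 115 (BDGP6.54, dm6 coordinates, counted from 1), where the loci of all 9 genes were identical. The number of tests behind each FDR, needed for a Bonferroni alternative, was recovered from P over FDR, by a step checked on simulated data. At the recovered number, 87.6% of the distinct ratios in SG, 73.0% in SG-tut, 74.1% in SG-bam and 73.9% in SG-bgcn gave whole ranks within 0.01, so the Bonferroni counts rest on an estimate. The recovered number was 5813 in SG, 5580 in SG-tut, 6142 in SG-bam and 5592 in SG-bgcn.

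The members and gene lists were chosen with earlier results of these data known. The rule named all 9 members, and up to 3 listed genes per pathway list, by the largest fold of the share with values above 0 in both groups. For members in at least 3 tables it named the 3 nearest genes by Euclidean distance of centred log2(gene level + 0.1). ProtA, robl37BC and sowi fall outside that rule, as their extensions were at 0, and were named after their values were seen, as were the markers singled out and the neighbours cnc and mthl3.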

Additional observations from a re-analysis of the deposited data

How the results depend on the processing

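No paired analysis was possible because the tables hold group averages and no values per library, so leaving out a replicate or a replicate block could not be run. Of 44 counts of members under an alternative, 35 stayed within 1.5 times of the count reported and 9 did not. Under Bonferroni adjustment over the recovered tests, called members numbered 2 for SG in place of 5, 1 for SG-tut and 0 for SG-bgcn in place of 3 each. For SG-bam they numbered 2 in place of 3, which is within 1.5 times. At a gene level of at least 1 in both groups, 1 of the 3 members in SG-tut and 1 of the 3 in SG-bgcn remained in the counts of calls and of lower gene level. Members with the higher share in SG-tut numbered 0 with the authors' constant of 1e-05 and 3 with 0.01 or 0.1. In SG-bgcn they numbered 2 and 3, which is within 1.5 times. Of 28 single folds of the share under another constant 20 kept their direction. The other 8 reversed, all of extensions listed at 0, where the constant alone sets the share. With constants of 0.01 and 0.1 the log2 fold was 4.81 and 7.82 for dj, 1.37 and 4.56 for ProtB, 5.08 and 8.03 for soti in SG-tut, and 7.46 and 9.67 for soti in SG-bgcn. A share without the limit of 1, added after seeing the data, changed no count.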

Other observations

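The nested aly extensions allow the SC signal to be placed along the 3′ end. As the SC level of identical extensions was the same in all 563 pairs of rows, level times length can be subtracted between tables. The first 310 bases, inside the annotated 3′ UTR, had an SC level of 0.110, the next 250 bases 0.821 and the last 90 bases 1.79. The last of these stretches lies wholly past the annotated end of aly. For fzo the first 500 bases had 0.322, the next 10 bases 0 and the remaining 790 bases 0.189.

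Most deposited extensions have a length that is a multiple of 10 bases, namely 83.1% in SG, 75.3% in SG-tut, 77.7% in SG-bam and 78.6% in SG-bgcn, and none is shorter than 200 bases. Of the 14 rows of the differentiation genes 10 have such a length, and the other 4 are robls54B, dj, Mst84Dd and ProtB. Of those 4, dj and Mst84Dd end directly at the next gene, and ProtB reaches into ProtA.

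The log2 folds of extension levels that were higher in the mitotic group left a gap in the mutant tables. Between 3.5 and 4 there were 0 such rows among 460 (SG-tut), 479 (SG-bam) and 453 (SG-bgcn), against 100 among 682 in SG. aly lay below the gap in SG-bam (1.62) and SG-bgcn (1.84), and fzo above it in both (4.52 and 4.42). The bounds of the gap were chosen after seeing the values, and its origin was not tested.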
